A study of Homo sapiens with 16 samples.

Results

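The data described here are the MYC peak lists from ChIP-seq (chromatin immunoprecipitation followed by sequencing) of LoVo cells held in M phase or in early S phase. LoVo is a human cell line grown from a colon adenocarcinoma. All peaks of the 2 lists were taken, 1974 from M-phase cells and 11941 from S-phase cells, so that 13915 of the 146596 peaks in the 12 lists of the series were MYC peaks. A MYC peak was called shared if it overlapped a MYC peak of the other phase by at least 1 bp, and M-only or S-only if it did not. M-phase cells came from a single 12 h block in 2 mM thymidine followed by 8 h in nocodazole at 200 ng/ml, a drug that stops spindle assembly. Early S-phase cells had gone through 2 such thymidine blocks, separated by 8 h in medium without it. Both were cross-linked with 1% formaldehyde, sheared to fragments of 200 to 400 bp, and precipitated with the same rabbit antibody to MYC at 5 µg. The labels do not say what share of the cells had reached either phase, and the treatments differ in drug as well as in phase. Each target had 1 library in each phase. Nothing below therefore has an error between samples, and no p-value was computed. The series is described as using siRNA against RAD21, but the labels of these samples name none.

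MYC is a helix-loop-helix leucine-zipper protein that pairs with MAX and binds the E-box, CACGTG, mostly near promoters of genes for ribosome biogenesis, translation, metabolism and cell-cycle entry. In colon cancer it is a main target of Wnt signalling. When chromosomes condense in mitosis, transcription stops at most genes and many transcription factors leave chromatin, whereas some factors are known to stay at a part of their sites. HNF4A, KLF5, RAD21, a cohesin subunit, and CTCF were mapped in the same experiment and serve here for comparison with MYC.

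The 2 MYC libraries stood apart in ways that bear on every value below. After removal of repeated tags the M-phase library held 15344922 tags and its rabbit IgG control 6875106, whereas the S-phase library held 9282892 tags and its control 10753369. The share of tags removed as repeats was 0.28 in the M-phase library and 0.11 in the S-phase library. The false discovery rate (FDR) deposited by the authors was 100% for 1526 of the M-phase peaks and at most 1.94% for every S-phase peak. The label of the M-phase sample gives all 1974 peaks as having an FDR under 5%, whereas the list holds 86 of that kind. The labels give the M-phase rabbit IgG control a peak number, 2118, equal to the number of M-phase KLF5 peaks, and the M-phase MYC peaks were called against that control. The label of the M-phase KLF5 sample carries no peak number, so the labels leave it unclear which of these 2 libraries is which, and every M-phase KLF5 value below is that of the library labelled KLF5. Of its peaks, 32.3% were shared with S phase, against 76.3% for MYC, 79.9% for HNF4A, 82.0% for RAD21 and 82.8% for CTCF. The doubt about the control also reaches the M-phase lists of HNF4A, KLF5, RAD21 and H3, whose control held the same number of tags, 6875106.

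MYC peaks held a far smaller share of the library in M phase than in S phase, 0.0774 times as large. In M phase, 59168 tags, or 0.386% of the library, lay in MYC peaks that covered 2.28 Mb in all. In S phase, 462366 tags, or 4.98%, lay in peaks that covered 17.8 Mb. The sums move with how much was called. Inside the peaks, the deposited tags per kb were nearly equal, 25.91 in M phase and 25.98 in S phase. Per 1000000 library tags the density was 1.69 tags per kb in M phase and 2.80 in S phase. The M-phase library held 1.65 times as many filtered tags, and the 2 densities cover different sets of peaks. At sites with a single MYC peak in each phase, the median ratio of deposited tags, M phase over S phase, was 0.473. The median ratio of widths there was 0.661. The histone H3 control lists went the same way, with 0.0848% of tags in peaks in M phase and 0.832% in S phase, and the HNF4A lists with 0.382% and 5.02%. Peaks of the shorter M-phase list also lay farther apart. The median distance from a MYC summit to the nearest other MYC summit was 272649 bp in M phase and 28592 bp in S phase. Another MYC summit lay within 10 kb for 5.22% of M-phase peaks, against 28.8% of S-phase peaks.

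Strong M-phase MYC peaks nearly always lay on S-phase MYC peaks, and the M-only peaks came from the weak end of the list. Of the M-phase peaks, 1507 were shared (76.3%, 95% interval 74.4 to 78.2%, exact Clopper-Pearson over peaks, counting error only). For the other 5 targets together, 79.6% of M-phase peaks were shared with S phase, but most of these were RAD21 or CTCF peaks, and the H3 control stood at 17.2%. When the M-phase peaks were divided into 10 equal groups by MACS score, which is 10 times the negative log10 of the peak caller's p-value, all 197 of the strongest group were shared (lower bound 98.1%). In the weakest group, with scores up to 52.02, 103 of 198 were shared (52.0%, 44.8 to 59.2%). Of the 451 M-phase peaks with a score of at least 100, 443 were shared and 8 were M-only. All 86 M-phase peaks with an FDR under 5% were shared.

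**Figure D1:**
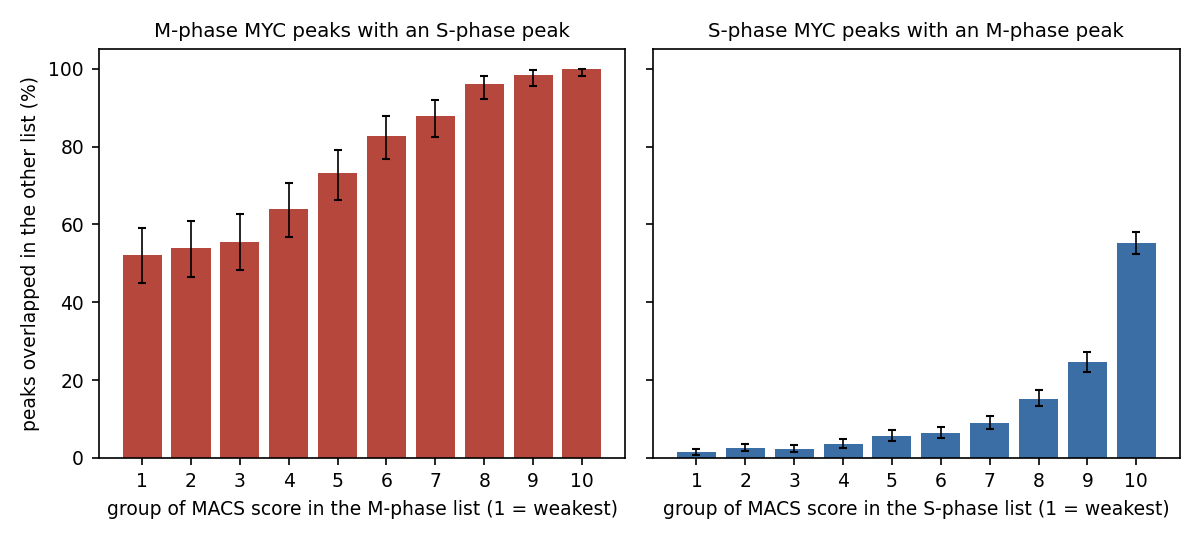
Share of MYC peaks overlapped by a MYC peak of the other phase, in 10 equal groups of the MACS score from weakest (1) to strongest (10), for the M-phase list on the left and the S-phase list on the right; bars are percent of peaks and error bars exact 95% intervals over peaks. The share runs from 52.0% to 100% over the M-phase list and from 1.42% to 55.2% over the S-phase list.

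From the S-phase side, the shared share was higher where the site held more tags. In all, 1500 S-phase peaks were shared (12.6%), and 10441 were S-only; over the other 5 targets, 51.5% of S-phase peaks were shared. By target the shares were 12.3% for HNF4A, 11.4% for KLF5, 2.83% for H3, 69.7% for RAD21 and 69.4% for CTCF, so the MYC share was near those of HNF4A and KLF5. All 10 S-phase MYC peaks of highest score were shared, 91 of the strongest 100 (91.0%, 83.6 to 95.8%) and 357 of the strongest 500 (71.4%, 67.2 to 75.3%). Of the S-phase peaks with 11 to 19 tags, 44 of 2895 were shared (1.52%), and of those with 40 to 59 tags, 360 of 2231 (16.1%, 14.6 to 17.7%). Of those with 100 to 149 tags, 239 of 381 were shared (62.7%, 57.7 to 67.6%). Even among the 108 S-phase peaks with 150 tags or more, 21 had no M-phase MYC peak.

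Shared sites with more tags in S phase also held more in M phase. The fewest tags of any M-phase MYC peak were 14, and shared M-phase peaks held a median of 29, with a lower quartile of 21. At sites with a single MYC peak in each phase, those with 40 to 59 tags in S phase held a median of 25 tags in M phase (range 14 to 70), and those with 100 to 149 tags held 43 (16 to 85). Sites with 150 tags or more in S phase held a median of 66 in M phase (19 to 130). The lists hold no tag number for a site that was not called, so how many M-phase tags lay at the S-only sites was not measured. S-only peaks had a median of 28 tags in S phase, and shared S-phase peaks 66.

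**Figure D2:**
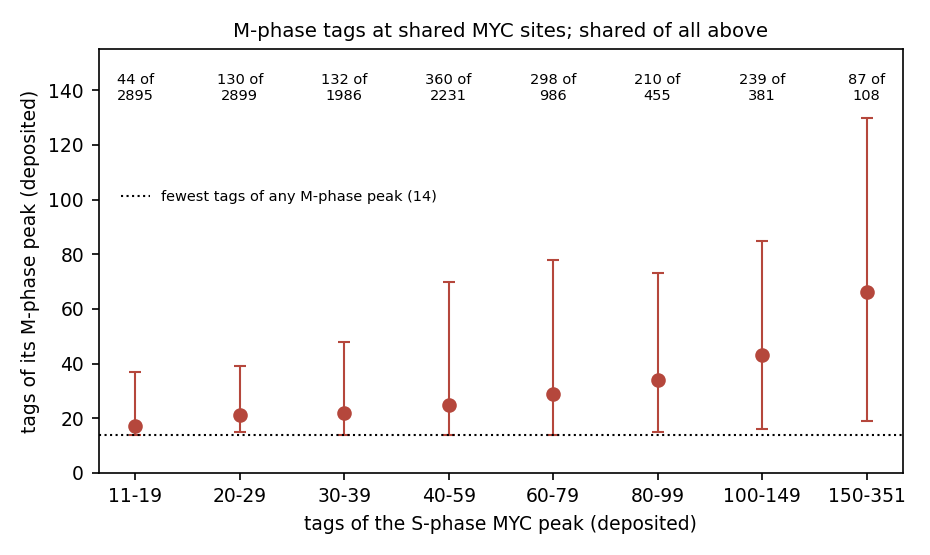
Deposited tags of the M-phase MYC peak (vertical axis) by class of deposited tags of the S-phase MYC peak (horizontal axis), at 1459 sites with 1 MYC peak in each phase; points are medians, bars run from the lowest to the highest site, and the dotted line marks the fewest tags of any M-phase peak (14). The numbers above give shared of all S-phase peaks in each class, from 44 of 2895 to 87 of 108.

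Wider S-phase peaks were also shared more often. In 10 equal groups of the called width, the share of S-phase MYC peaks that were shared ran from 1.42% for widths of 406 to 845 bp to 32.7% (30.1 to 35.5%) for widths of 2280 to 8043 bp. By fold enrichment over modelled background, the authors' value within the S-phase list, the lower groups were nearly flat: 4.35% were shared in the lowest and 6.03% in group 5. The highest group by fold enrichment, from 17.6-fold upward, had 46.0% shared (43.1 to 48.9%). Few pairs lay at the edge of the overlap rule: 12 pairs overlapped by 200 bp or less, with medians of 22 M-phase and 29.5 S-phase tags, and 5 pairs of unshared peaks lay 200 bp or less apart, with medians of 19 M-phase and 32 S-phase tags. Asking for summits within 100 bp of each other in place of any overlap left 42.7% of M-phase and 7.05% of S-phase MYC peaks shared.

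At shared sites MYC tags scaled to library size were lower in M phase with hardly an exception. At the 1459 sites with a single MYC peak in each phase, the ratio of scaled tags (tags over the filtered tags of the library), M phase over S phase, had a median of 0.286 (95% interval 0.277 to 0.294, order statistics over sites). The middle 50% of sites lay between 0.214 and 0.382. The ratio was lower where the S-phase peak held more tags, with a median of 0.672 at 11 to 19 S-phase tags and 0.220 at 100 to 149. M-phase peaks held at least 14 tags, so sites with few S-phase tags could be counted only at higher ratios. Scaled tags were at least 2-fold lower in M phase at 1299 sites (89.0%), and at least 4-fold lower at 568 (38.9%, 36.4 to 41.5%). Of such sites of the other 5 targets together, 48.4% were at least 2-fold lower, but the targets differed widely. The share was 92.9% for HNF4A, 79.7% for CTCF, 47.8% for KLF5 and 11.4% for RAD21. Scaled MYC tags were higher in M phase at 2 sites. Without scaling, the deposited MYC tags were higher in M phase at 73 sites (5.0%), and their median ratio was 0.473. The median ratio of scaled tags was 0.277 for HNF4A (0.271 to 0.280), 0.330 for CTCF (0.327 to 0.333), 0.513 for KLF5 (0.489 to 0.540) and 0.745 for RAD21 (0.741 to 0.748). The H3 control was lower in M phase too, with a median ratio of 0.445 (0.412 to 0.506) over 93 sites, of which 60.2% were at least 2-fold lower. 

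Part of the lower tag number went with narrower peaks. The M-phase peak was narrower at 1358 of the 1459 sites (93.1%, 91.7 to 94.3%), with a median width ratio of 0.661, and it lay wholly inside the S-phase peak at 1059 sites (72.6%). Per kb of called width the median tag ratio was 0.448 (0.436 to 0.455), so the difference was smaller but of the same direction. The density ratio was 0.547 for HNF4A, 0.550 for CTCF, 0.630 for H3 and 0.650 for RAD21, all below 1 like that of MYC. It was 0.999 for KLF5, whose M-phase library is in doubt by its label, as is the M-phase rabbit IgG control. Called width and tag number are not independent measures.

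Summits of MYC lay close together at many sites, within the bound that the overlap of the peaks sets. The median distance between the M-phase and S-phase summits was 81 bp (74 to 89 bp), and 822 of the 1459 sites (56.3%, 53.8 to 58.9%) had summits within 100 bp. The signed shift had a median of 0 bp. Summits lay within 1000 bp of each other at 1419 sites (97.3%). Summits within 100 bp were found at 71.9% of HNF4A, 84.9% of RAD21, 88.8% of CTCF, 49.8% of KLF5 and 44.1% of H3 sites, so MYC summits lay less close than those of HNF4A, RAD21 and CTCF. The order of sites by tags was partly kept: Spearman's rho between M-phase and S-phase tags was 0.62 over the 1459 sites, given as a description, since all sites come from the same pair of libraries.

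**Figure D3:**
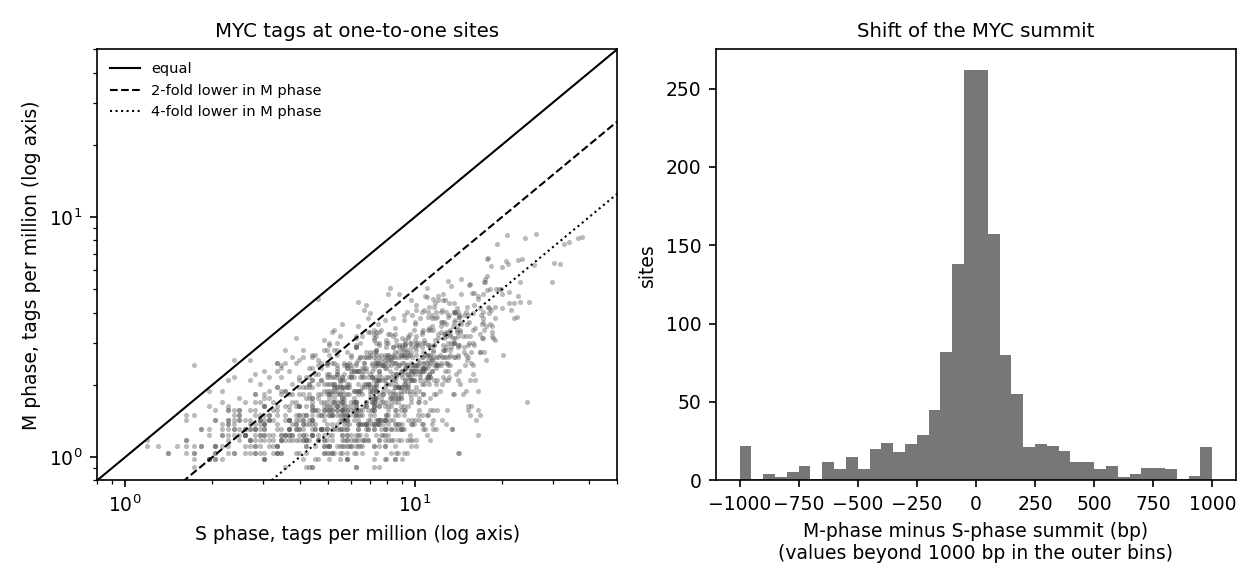
Left, MYC tags scaled to library size at 1459 sites with 1 peak in each phase, M phase on the vertical and S phase on the horizontal axis (both log axes), with lines for equal, 2-fold lower and 4-fold lower M-phase values; right, number of sites by shift of the summit in bp, M phase minus S phase. Nearly all points lie below the line of equal values (median ratio 0.286), and the shifts centre on 0 bp.

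Single sites show how MYC looked in each phase. Positions are hg18 coordinates as deposited. No hg18 gene annotation was used here, so sites are named by position and by the other proteins found at them. Scaled tags are given per 1000000 filtered tags of the library, and fold enrichment is the authors' value within each list.

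Among sites where MYC stood alone in both phases, the S-phase peak of highest score lay on chromosome 2 from 232035910 to 232038816. Its M-phase peak, from 232036064 to 232037720, held 68 tags (4.43 scaled tags), and its S-phase peak 230 tags (24.8 scaled tags), with summits 0 bp apart. The site was thus among the strong ones in both lists. Its ratio was 0.179, against a median of 0.220 at sites with 150 S-phase tags or more. On chromosome 6, the M-phase peak from 74285725 to 74288606 held 104 tags (6.78 scaled tags) and the S-phase peak 166 tags (17.9 scaled tags). It was the wider peak in M phase, 2882 bp against 2445 bp, which few sites showed. On chromosome 21 the M-phase peak from 43171310 to 43173204 held 82 tags and the S-phase peak 161. In all, 306 of the 1459 single-peak sites had no peak of HNF4A, KLF5, RAD21 or CTCF in either phase.

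The site second in M-phase fold enrichment differed least between the phases among the leading 5. It lay on chromosome 12 from 111330792 to 111332307 and held 78 tags in M phase, 5.08 when scaled, against 76 in S phase, 8.19 when scaled. Its fold enrichment was 25.92 in M phase and 14.39 in S phase. No other protein was listed there in either phase. The third in M-phase fold, on chromosome 13 from 90799248 to 90800282, held 57 tags in M phase and 85 in S phase, with CTCF in both phases and summits 2 bp apart. The fourth, on chromosome 17 from 59204349 to 59205613, held 49 tags in M phase with no other protein, and 136 in S phase with KLF5. The fifth, on chromosome 1 from 52935671 to 52937056, held 48 tags in M phase alone and 84 in S phase with HNF4A. In these lone M-phase peaks the MYC summit was within 50 bp of its S-phase position.

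All 4 other proteins were present in S phase at 74 of the sites with a single MYC peak in each phase, and the 3 of highest S-phase score had RAD21 with CTCF or no company in M phase. On chromosome 17 from 46585395 to 46587010 the M-phase MYC peak held 103 tags with RAD21 and CTCF, at an enrichment of 23.09-fold, and the S-phase peak held 165 tags. On chromosome 15 from 89275623 to 89277298 it held 65 tags in M phase, again with RAD21 and CTCF, and 141 in S phase. On chromosome 15 from 39194642 to 39195524 it held 58 tags in M phase with no other protein, and 205 in S phase. HNF4A and KLF5 were not listed at any of these 3 sites in M phase.

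The extremes of the tag ratio were of different kinds. The highest ratio, 1.399, was on chromosome 5, where the M-phase peak from 40790714 to 40792429 held 37 tags and the S-phase peak 16, both beside RAD21 and CTCF; its summits were 1061 bp apart. Of the 5 highest ratios, 4 had an S-phase peak of 22 tags or fewer; the other, on chromosome 15 from 76619210 to 76621953, held 70 tags in M phase and 43 in S phase. The lowest ratio, 0.0696, was on chromosome 15, where an S-phase peak 4560 bp wide with all 4 other proteins held 226 tags, and the M-phase peak, from 73034985 to 73036042 with RAD21 and CTCF, held 26.

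Some of the strongest S-phase MYC peaks were not listed in M phase within 1000 bp. The first by score, on chromosome 2 from 85618047 to 85621427, held 245 S-phase tags with HNF4A beside it, at 27.88-fold, and CTCF was the other protein found there in M phase. The second, on chromosome 7 from 26205240 to 26209315, held 218 tags with KLF5 in S phase and had no peak of the other 4 proteins in M phase. The third, on chromosome 19 from 17831377 to 17833309, held 124 S-phase tags with RAD21 and CTCF beside it, at 47.48-fold, and both of these were still listed in M phase. At the fifth, on chromosome 2 from 232185186 to 232188576 with 178 tags, RAD21 and CTCF were likewise listed in both phases. Thus MYC was missing from the M-phase list at sites where cohesin and CTCF were present in it.

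The company of MYC differed by phase mainly for HNF4A and KLF5. At the 1507 shared M-phase MYC peaks, an HNF4A peak was present at 5.71% in M phase (4.59 to 7.0%) and at 46.8% in S phase (44.3 to 49.4%). KLF5 was present at 9.29% in M phase (7.87 to 10.9%) and 42.0% in S phase (39.5 to 44.5%). RAD21 was present at 22.2% in M phase and 23.4% in S phase, and CTCF at 26.3% and 25.3%. The contrast was not particular to shared peaks. At S-only MYC peaks HNF4A was present at 5.22% in M phase and 41.9% in S phase, and KLF5 at 4.31% and 31.9%. RAD21 stood at 18.6% and 26.9% there, and CTCF at 24.8% and 27.0%. The M-phase lists of HNF4A and KLF5 were themselves shorter than their S-phase lists, with 0.156 and 0.357 times as many peaks. H3 peaks, the chromatin control, were present at 2 of the 1507 peaks in either phase.

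**Figure D4:**
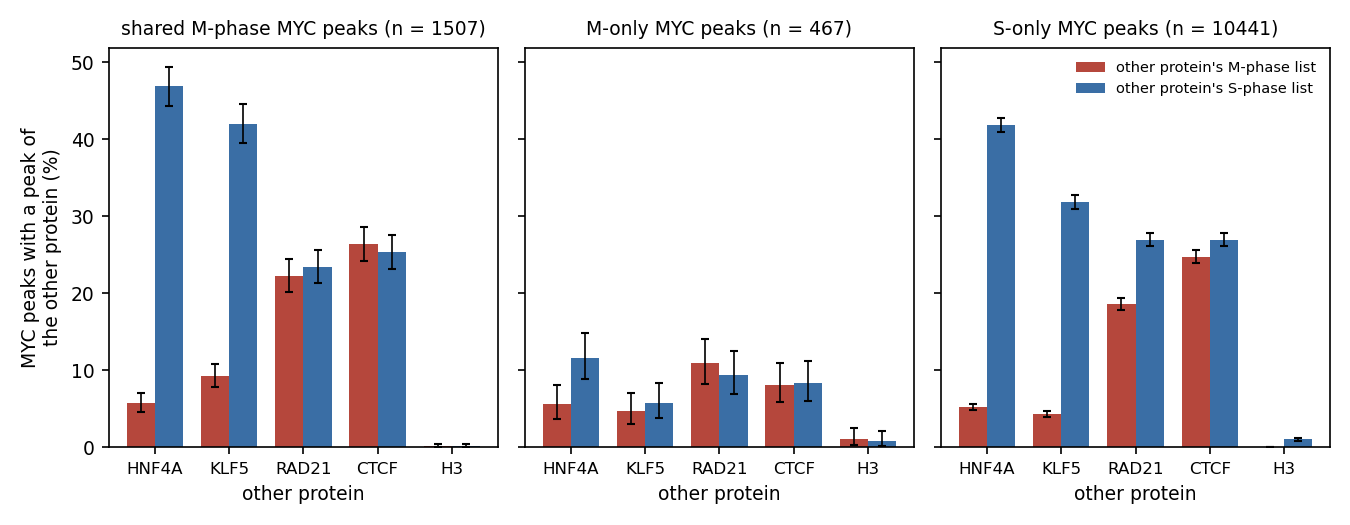
Share of MYC peaks that overlap a peak of another protein, for shared M-phase, M-only and S-only MYC peaks; bars are percent of MYC peaks with the other protein's M-phase list in red and its S-phase list in blue, and error bars are exact 95% intervals over peaks. At shared peaks HNF4A stands at 5.71% in M phase and 46.8% in S phase, whereas RAD21 and CTCF stand near each other in both phases.

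Most M-phase MYC peaks stood alone. Of all 1974 M-phase peaks, 1233 (62.5%) overlapped none of the other 4 proteins in M phase, against 3453 of 11941 S-phase peaks (28.9%) in S phase. This was no trait of the M-phase MYC list. Counted in the same M-phase lists, another protein lay at 37.5% of M-phase and 37.5% of S-phase MYC peaks. At S-only MYC peaks, another protein was present at 36.3% in M phase and 70.6% in S phase. Of the 1507 shared M-phase peaks, 521 (34.6%, 32.2 to 37.0%) had another protein in S phase and none in M phase, 584 (38.8%) had one in both phases, 335 (22.2%) had none in either, and 67 (4.45%) had one in M phase only. The most frequent company in M phase was CTCF alone at 201 peaks, RAD21 with CTCF at 173 and RAD21 alone at 123. In S phase it was HNF4A alone at 1683 peaks and HNF4A with KLF5 at 1274.

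Whether the partner itself was found again in M phase was followed at S-phase MYC peaks that carried it. The intervals given here cover counting error over peaks only and are not tests. HNF4A was listed in M phase at 11.7% of shared MYC peaks that had it in S phase (9.42 to 14.2%). Among S-only MYC peaks that had it, the share was 12.3% (11.4 to 13.3%). KLF5 was listed in M phase at 19.3% of shared MYC peaks that had it in S phase (124 of 644, 16.3 to 22.5%). Among S-only MYC peaks that had it, the share was 11.1% (368 of 3328, 10.0 to 12.2%). The M-phase KLF5 library is in doubt by its label, so this contrast is too. RAD21 was listed at 58.1% of shared (53.0 to 63.1%) and 51.8% of S-only peaks (49.9 to 53.6%), and CTCF at 78.8% (74.5 to 82.8%) and 72.7% (71.0 to 74.4%). At S-phase peaks of each protein with no MYC peak, 12.2% of HNF4A peaks were listed again in M phase, 9.23% of KLF5, 72.3% of RAD21 (71.7 to 72.8%) and 68.3% of CTCF (67.7 to 68.8%). RAD21 was thus found again at a lower share of MYC sites than of its other sites, CTCF at a higher share, and HNF4A at about the same share. The KLF5 share was also higher at MYC sites, but at S-only peaks it lay near the share elsewhere (interval 8.00 to 10.6%). These shares were counted over different units: MYC peaks at MYC sites, and the partner's own peaks elsewhere. The strength of the partner's own peak was not adjusted for. In numbers, 1456 S-only MYC peaks with RAD21 in S phase had RAD21 but not MYC in M phase, and 2047 with CTCF had CTCF but not MYC.

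MYC peaks with HNF4A or KLF5 in S phase were shared more often, but they were also stronger. With KLF5, 644 of 3972 peaks were shared (16.2%), and without it 856 of 7969 (10.7%), a difference of 5.47 percentage points (Newcombe 95% interval 4.16 to 6.82). With HNF4A, 14.3% were shared, and without it 11.3%, a difference of 3.02 points (1.81 to 4.25). The median score was 154 with KLF5 and 96.5 without, and 134 with HNF4A and 98.0 without. Within 10 equal groups of the score the sign turned, to -2.18 points for KLF5 (-3.53 to -0.840) and -2.19 points for HNF4A (-3.34 to -1.04). Other adjustments gave other values: within groups of fold enrichment the difference was 1.73 points for KLF5 (0.379 to 3.09) and 0.940 for HNF4A (-0.241 to 2.12), and within groups of width 0.408 for KLF5 (-0.994 to 1.81) and -1.53 for HNF4A (-2.79 to -0.281). Among the combinations, HNF4A with KLF5 and CTCF had the highest shared share, 47 of 231 peaks (20.3%, 15.3 to 26.1%), and RAD21 with CTCF but neither factor the lowest, 61 of 808 (7.55%, 5.82 to 9.59%). Their median scores, 186 and 84.5, stood in the same order.

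The most crowded MYC peaks were shared least often, but the share did not keep increasing with distance. Of the 486 S-phase peaks with another MYC summit within 1000 bp, 34 were shared (6.996%, 4.89 to 9.64%), whereas 491 of the 3479 whose nearest summit was over 30000 and up to 100000 bp away were (14.1%, 13.0 to 15.3%). Of the most isolated peaks, over 100 kb from the nearest other summit, 268 of 2356 were shared (11.4%, 10.1 to 12.7%). The median score was 88.7, 116 and 109 in these 3 classes. With and without a neighbour within 10 kb, 11.1% and 13.2% were shared, a difference of -2.08 points (-3.33 to -0.784), and within equal groups of the score the difference was -0.309 points (-1.40 to 0.779). For a neighbour within 30 kb it was -0.872 points (-2.06 to 0.317) without adjustment.

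Chromosomes 7, 12 and 15 held a larger share of the M-phase than of the S-phase MYC peaks. These were the chromosomes on which the peaks of RAD21 and CTCF, in both phases, all held at least 1.1 times the autosomal median of tags per peak, a rule that was chosen after the data were seen and that uses no MYC value. They held 24.5% of the M-phase MYC peaks and 15.9% of the S-phase MYC peaks. For RAD21 the shares were 16.3% and 16.8%, and for HNF4A 15.8% and 16.9%. For KLF5 they were 22.7% and 17.4%, and for H3 38.3% and 20.3%. On chromosome 12, 209 MYC peaks were listed in M phase and 730 in S phase, the highest ratio of any chromosome, 0.286. The other 19 autosomes had ratios between 0.110 and 0.183.

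Sharing of MYC peaks was higher on chromosomes 12 and 15, but not on chromosome 7. Of the S-phase MYC peaks, 20.8% were shared on chromosome 12 (17.9 to 24.0%) and 19.9% on chromosome 15 (16.4 to 23.8%), against 6.03 to 14.1% on the other 19 autosomes. Chromosome 7, with 12.5% (10.2 to 15.2%), lay inside that range, but held 60 M-only peaks, more than any other chromosome. Peaks on these chromosomes held more tags: the median was 30 tags in M phase and 41 in S phase on the 3 chromosomes, and 23 and 29 on all others. The median fold enrichment in S phase was lower there, 7.79 against 8.99. Pooled, 17.6% of S-phase MYC peaks on chromosomes 7, 12 and 15 were shared and 11.6% elsewhere, a difference of 5.93 points. Within equal groups of the number of tags the difference was -1.76 points (-3.54 to 0.0176), and within groups of width 1.14 (-0.729 to 3.01). Both intervals lay on both sides of no difference. Within groups of score it was 4.02 points (2.40 to 5.63) and within groups of fold enrichment 8.09 (6.45 to 9.72). For other targets, the pooled shares on the 3 chromosomes and elsewhere were 5.44% and 2.20% for H3, and 14.8% and 10.7% for KLF5. They were 74.0% and 68.6% for CTCF, 12.1% and 12.3% for HNF4A, and 67.6% and 70.2% for RAD21.

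**Figure D5:**
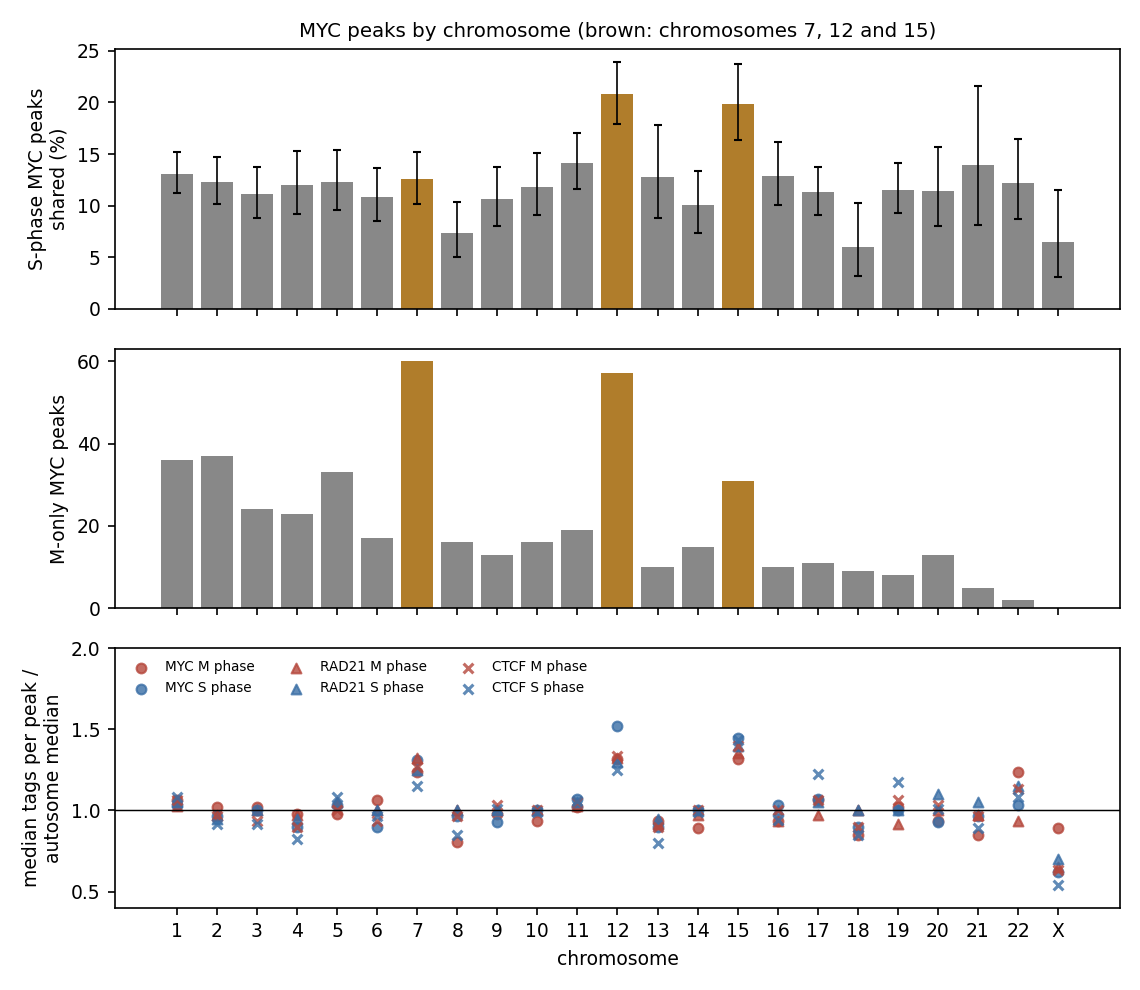
MYC peaks by chromosome: share of S-phase peaks that were shared with M phase (top, exact 95% intervals over peaks), number of M-only peaks (middle), and median tags per peak over the autosomal median for MYC, RAD21 and CTCF in each phase (bottom). Chromosomes 7, 12 and 15, in brown, stand at 12.5%, 20.8% and 19.9% shared and hold 60, 57 and 31 M-only peaks, and their peaks hold more tags in all lists shown.

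The 467 M-only MYC peaks were weak, narrow and mostly alone. Their median was 18 tags over 860 bp at a score of 55.9, close to the caller's cutoff of 50, whereas shared M-phase peaks had a median of 29 tags over 1150 bp at a score of 76.1. The FDR was 100% for 460 of them. Another of the 4 proteins was present in M phase at 19.3% of M-only peaks (15.8 to 23.1%), against 43.2% of shared M-phase peaks (40.7 to 45.7%). RAD21 was present at 10.9%, CTCF at 8.14%, HNF4A at 5.57% and KLF5 at 4.71%. When both lists were limited to scores of at least 100, which also makes an M-phase peak over a weaker S-phase peak M-only, the share with another protein was 76.9% of the few M-only peaks left. Chromosomes 7, 12 and 15 held 31.7% of the M-only peaks (27.5 to 36.1%) and 22.2% of the shared M-phase peaks (20.1 to 24.3%).

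The M-only peak of highest score with no S-phase MYC peak within 1000 bp lay on chromosome 12 from 94390990 to 94392616, and held 44 tags. It had an enrichment of 7.77-fold, an FDR of 33.46% and none of the other proteins in either phase. The second, on chromosome 16 from 85255280 to 85256747, held 33 tags beside HNF4A in both phases. The third and the fifth, on chromosome 7 from 101526714 to 101528693 with 44 tags and from 120725664 to 120726888 with 35 tags, also lay at HNF4A peaks of both phases. The fourth, on chromosome 20 from 39090089 to 39090770, held 23 tags and stood alone. The FDR of these 5 lay between 33.46% and 88.63%, and none reached the score of the strongest group of M-phase peaks.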

How the data were processed

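ChIP-seq peak lists of MYC in M-phase and S-phase LoVo cells, with those of HNF4A, KLF5, RAD21, CTCF and H3 for comparison, were used as deposited. Per the submitters' processing notes, reads went through CASAVA 1.4, BWA (human build hg18) and MACS 1.4; per the file headers, MACS 1.4.0rc2 called peaks per target and phase on merged alignments against IgG with a p-value cutoff of 1e-05, keeping 1 tag at a position. Tag numbers are raw counts inside each peak, as the authors deposited them. As a score they gave 10 times the negative log10 of the p-value, per the file headers. The deposited fold enrichment is a ratio over modelled background, and the deposited FDR is a percent. Samples were grouped by title.

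All listed peaks were compared with scipy 1.17.1 and pandas 2.3.3 under Python 3.11.15. Scaled tags are tags per 1000000 filtered tags of the library. A neighbour is another MYC summit within 10 kb, and differences within groups weight 10 equal groups by the smaller class. Intervals are over peaks, cover counting error only, and are not tests; 1 library per phase allows none across samples. Overlap and adjustment steps were tested on simulated data. The members, comparisons and region rules were chosen with earlier results of these data known. Named regions follow a fixed rule: leaving out sites at H3 peaks or off chromosomes 1 to 22 and X, the leading sites by M-phase fold, tag ratio or score, shared, S-only or M-only. No hg18 sequence or annotation was used here.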

Additional observations from a re-analysis of the deposited data

How the results depend on the processing

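The 14 results were recomputed under 69 alternatives, of which 30 left the value within its interval (for the peak number ratio, close to it), 36 moved it and 3 reversed it. With peaks of a score of at least 100, the peak number ratio, M over S phase, was 0.0682, the shared share of M-phase peaks 97.1%, that of S-phase peaks 6.65%, the scaled tag ratio 0.295, the width ratio 0.717 and the summit distance 63 bp; of the few M-only peaks then left, 76.9% had another protein in M phase. With an FDR under 5% these were 0.00720 for the peak number ratio, 100% of M-phase peaks and 0.729% of S-phase peaks. With an overlap of 50% of each peak, 58.1% of M-phase and 9.60% of S-phase peaks were shared, the tag ratio was 0.315, the width ratio 0.720, and the differences with HNF4A and KLF5 were 1.56 and 2.86 points. With summits within 100 bp the shares were 42.7% of M-phase and 7.05% of S-phase peaks, and with peaks within 1000 bp 13.7% of S-phase peaks. Of as many S-phase peaks of highest score as the M-phase list holds, 44.0% were shared. The tag ratio was 0.473 without scaling, 0.448 per kb and 0.233 scaled by all tags; all stayed below 1. Without adjustment the difference was -0.559 points for RAD21 (-1.86 to 0.802) and -0.276 for CTCF (-1.58 to 1.09), with intervals on both sides of no difference. In equal groups of score the differences were -2.19 points for HNF4A and -2.18 for KLF5, both reversed, -2.62 for RAD21, -1.74 for CTCF and -0.309 for a MYC neighbour. In groups of width they were -1.53 for HNF4A, reversed, 0.408 for KLF5, -3.26 for RAD21 and -1.85 for CTCF. In groups of fold enrichment they were 0.940 for HNF4A, 1.73 for KLF5, -0.858 for RAD21 (-2.11 to 0.391), -0.701 for CTCF (-1.96 to 0.554) and -0.297 for a neighbour. With neighbours within 3 kb the difference was -3.89 without adjustment. Without chromosomes 7, 12 and 15, an alternative chosen after seeing the data, 78.6% of M-phase and 11.6% of S-phase peaks were shared, and 40.1% of shared M-phase peaks had another protein in M phase. Beyond what each setting changes by construction, the cause was not tested. No paired analysis was possible because each phase has 1 library and the labels carry no replicate numbers. Sites absent from the M-phase list have no M-phase tag number, so absence there is a missing call and not a measured absence of MYC.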

Other observations

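In stretches of 100 kb, the one with most shared peaks, on chromosome 12 from 54720948 to 54820947, held 4 M-phase and 6 S-phase MYC peaks, of which 5 S-phase peaks were shared. A stretch on chromosome 1 from 154962433 to 155062432 held 5 M-phase and 6 S-phase peaks, again with 5 shared. The stretch with most S-phase peaks and no M-phase MYC peak, on chromosome 16 from 624841 to 724840, held 12 S-phase peaks with 510 tags in all, the strongest of 117 tags. One on chromosome 19 from 970623 to 1070622 held 11 S-phase peaks, none above 41 tags, and one on chromosome 17 from 77004360 to 77104359 held 9, the strongest of 93 tags.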
